A study of Danio rerio with 68 samples.

Results

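The genes described here encode the enzymes of glycolysis in the zebrafish. They were chosen by symbol alone: a row was kept when its symbol, case ignored, began with that of a hexokinase (hk1, hk2, hkdc1, gck), glucose phosphate isomerase (gpia, gpib), phosphofructokinase (pfkl, pfkm, pfkp), a PFKFB regulator, an aldolase, or an enzyme of one of the later steps down to pyruvate kinase and lactate dehydrogenase. This rule found 47 of the 32677 rows of the table. Of them, 36 encode enzymes of the pathway or lactate dehydrogenase, and 7 encode PFKFB enzymes, which make and break down fructose 2,6-bisphosphate, the activator of phosphofructokinase. The other 4 matched by their letters and encode no glycolytic enzyme: ldhd is a mitochondrial D-lactate dehydrogenase, pgam5 a mitochondrial protein phosphatase, pkmyt1 a kinase of the cell cycle and gckr the inhibitory partner of glucokinase. Symbols such as PFKL (1 of 2) are those of the deposited table and mark similar copies of a gene, between which reads could have been split.

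Brain, liver and skin were sampled as 68 libraries from male fish kept with rotenone, an inhibitor of respiratory complex I, at 3.75 nM in the tank water, or without it as controls, which the protocol gives as DMSO and the sample labels as untreated. Fish of 36 months received rotenone for 8 weeks (6 brains, 6 livers, 6 skins), against controls of 36 months at 8 weeks (4 brains, 3 livers, 4 skins), or rotenone for 3 weeks (5 brains, 4 livers, 5 skins), against controls of 36 months at 3 weeks (3 brains, 2 livers, 3 skins). Controls of 12 months were sampled at 8 weeks (3 of each tissue) and at 3 weeks (3 brains, 2 livers, 3 skins), and no rotenone group of that age was analysed here. The strain, the number of tanks and the day of sampling are not given in the labels, and the ages come from different fish, so that age, cohort and rearing cannot be told apart. Nothing in the labels says how fish were spread over tanks, so p-values measure the spread between these fish.

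Glycolysis turns glucose into pyruvate in the cytosol with a small yield of ATP that needs no oxygen, and lactate dehydrogenase converts pyruvate and lactate into each other. Hexokinase, phosphofructokinase and pyruvate kinase catalyse steps that are nearly irreversible and are the main points of control, while the other enzymes also work backwards in gluconeogenesis. Most steps have several gene copies with tissue-bound forms, such as glucokinase (gck) and the PKLR pyruvate kinase in mammalian liver, aldolase C and enolase 2 in mammalian brain, and pgam2 and enolase 3 in mammalian muscle. Blocking complex I makes many cultured cells rely more on this pathway.

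The glycolysis genes took between 1.05% and 1.52% of the counts of a brain library, between 1.56% and 4.25% of a liver library and between 0.435% and 1.19% of a skin library. Library totals ran from 24.1 M to 54.9 M counts. In brain 47 members passed the filter on low counts, in liver 44 (not aldoca, pfkmb and pkmb) and in skin 45 (not gck and gckr). The tissue labels held against their markers: hepatocyte markers took 6.53% to 25.2% of liver counts, neuron markers 1.09% to 1.56% of brain counts and epidermis markers 4.56% to 10.8% of skin counts. Libraries treated as standing apart were the 36-month control liver replicate 3 at 8 weeks, in which 25 intestine markers took 2.43% of counts (0.0725% to 0.407% in the other livers), the 36-month control skin replicate 3 at 3 weeks, with 13.7% of counts on 49 skeletal muscle markers (0.741% to 6.23% in the other skins), and rotenone brain replicates 3 and 4 at 3 weeks, in which counts fell with transcript length (slopes of -0.0618 and -0.149, against -0.0281 or higher in the other brains). Slopes as low also occurred in other tissues, in libraries that were kept. The lowest were -0.0839 in skin and -0.0621 in liver, each in 36-month control replicate 2 at 3 weeks. The 12-month control skin replicate 2 at 3 weeks was set apart in earlier results of these data and held 23.7 CPM (a gene's counts scaled to the library's total) of ENO4, the enolase of mouse sperm, against 0.107 to 4.61 CPM in the other skins. Outside these 5, rotenone liver replicate 6 at 8 weeks had 7.27% of counts on pancreas markers (0.0115% to 2.86% in the other livers), rotenone brain replicate 6 at 8 weeks 0.391% on hepatocyte markers (0.0244% to 0.143% in the other brains) and 12-month control skin replicate 1 at 3 weeks 1.87% on hepatocyte markers (0.103% to 0.278% in the other skins). These were left out 1 at a time only, and without the liver and the brain named here 4 and 0 members were called for rotenone at 8 weeks in their tissues, as with them.

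The leading gene copy of most steps differed between tissues, while some steps had the same one throughout. Levels are given as RPKM, which corrects for transcript length and depth, as mean ± SD over the 24 brains, 20 livers and 24 skins. At the hexokinase step, which traps glucose in the cell, hk1 stood at 73.1 ± 7.94 RPKM in brain, 1.26 ± 1.28 RPKM in liver and 18.3 ± 6.9 RPKM in skin. Glucokinase, the low-affinity enzyme of the liver, averaged 191 ± 507 RPKM in liver, 0.196 ± 0.126 RPKM in brain and 0.0662 ± 0.0384 RPKM in skin. The liver SD exceeds the mean because single fish differed so widely. The hexokinase-like gene hkdc1 stood at 45.2 ± 58.6 RPKM in liver, 1.65 ± 1.04 RPKM in brain and 0.279 ± 0.464 RPKM in skin, and hk2, the insulin-responsive hexokinase of mammalian muscle, at 22.3 ± 6.77 RPKM in skin, 2.64 ± 4.11 RPKM in liver and 1.82 ± 0.837 RPKM in brain. Of the summed RPKM of this step, hk1 made up a mean of 95.2% in brain, gck 48.0% and hkdc1 39.6% in liver, and hk2 54.9% and hk1 44.3% in skin. By counts, without the length correction, hkdc1 led in liver with 46.7% and gck held 38.4%.

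Phosphofructokinase, the committing step, was led by PFKP (1 of 2) in brain, at 149 ± 13.1 RPKM and 68.9% of the step. In liver PFKL (2 of 2) led at 10.6 ± 5.98 RPKM and 74.7% of the step. Skin had no single leading copy: pfkmb held 26.6% and pfkma 24.2%, at 17.7 ± 12 and 16.3 ± 11.5 RPKM. These pfkm copies, named for the muscle subunit of mammals, stood under 1 RPKM on average in brain and liver. By counts, without the length correction, PFKL (1 of 2) held 23.04% of the step in skin, pfkmb 22.45% and pfkma 21.31%. The PFKFB regulators were divided in the same way. PFKFB1 (1 of 2) held 65.3% of the regulators' RPKM in liver (39.6 ± 19.8 RPKM), while PFKFB2 (1 of 2) and pfkfb3 held 31.3% and 29.7% in brain (37.8 ± 4.92 and 36.6 ± 11.8 RPKM). In skin pfkfb4l led with 36.5% (18.4 ± 4.81 RPKM).

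Aldolase splits fructose 1,6-bisphosphate, and brain and skin led with different copies. Brain used aldocb, at 1148 ± 89.97 RPKM and 72.8% of the step, with aldoca at 107 ± 43.8 RPKM. Skin used aldoaa (494 ± 215 RPKM, 54.0% of the step) with aldoab (91.9 ± 54.6 RPKM, 9.65%). Glucose phosphate isomerase, triosephosphate isomerase and phosphoglycerate kinase had the same leading copy everywhere. gpia held 98.9% of the summed RPKM of its step in brain, 99.7% in liver and 65.5% in skin. tpi1b was at 190 ± 38.6 RPKM in brain, 194 ± 57.8 RPKM in liver and 106 ± 41.2 RPKM in skin, while its copy tpi1a was high in brain (40.5 ± 8.42 RPKM, against 0.12 ± 0.215 RPKM in liver and 0.842 ± 2 RPKM in skin). pgk1, the single copy found for its step, was at 207.4 ± 19.4, 154 ± 35.2 and 89.8 ± 26.6 RPKM in brain, liver and skin.

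The glyceraldehyde-3-phosphate dehydrogenase step was split between gapdhs and gapdh. gapdhs, whose mammalian counterpart is the sperm enzyme, held 99.2% of the step in brain (1546 ± 218 RPKM), 1.91% in liver (40.6 ± 61.2 RPKM) and 31.6% in skin (277 ± 81.3 RPKM). gapdh held 98.1% in liver (2162 ± 489 RPKM) and 68.5% in skin (729 ± 452 RPKM) but 0.794% in brain (12.2 ± 20.3 RPKM). Neither gene therefore kept a constant level across these tissues. Phosphoglycerate mutase was led by pgam1b in brain (112 ± 11.4 RPKM), pgam1a in liver (112 ± 34.5 RPKM) and the muscle form pgam2 in skin (77.9 ± 48.8 RPKM). Enolase was led by eno1a in brain (399 ± 52.8 RPKM), with the neuronal form eno2 next (189 ± 33.8 RPKM), and by eno3 in liver (579 ± 103 RPKM) and skin (295 ± 105 RPKM).

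At the last steps, pyruvate kinase was nearly all pkma in brain (97.6% of the step, 156 ± 15.4 RPKM), nearly all PKLR in liver (98.5%, 1082 ± 585 RPKM) and shared by pkmb (50.2%, 53.8 ± 34.1 RPKM) and pkma (47.5%, 42 ± 8.5 RPKM) in skin. By counts, without the length correction, pkma led in skin with 67.7% and pkmb held 31.3%. Lactate dehydrogenase was led by ldhba in brain (69.4%, 453 ± 69.7 RPKM) and skin (78.9%, 241 ± 76.7 RPKM) and by ldhbb in liver (92.8%, 885 ± 281 RPKM). ldha, the form that favours lactate in mammals, followed in brain at 170.9 ± 22 RPKM. Skin libraries held 0.741% to 13.7% of counts on 49 skeletal muscle markers. Over skins, with group means removed, gapdh, eno3, pgam2, aldoaa, pkmb and pfkmb, which lead their step by RPKM, rose with that share (Pearson's r from 0.498 to 0.88). So did pgk1 and tpi1b (r = 0.652 and 0.575). hk2, pfkfb4l and ldhba did not (r = -0.0962, 0.0578 and -0.228), and gpia and pkma fell (r = -0.531 and -0.656). Without the 2 skins farthest from the median muscle share, r was -0.266 for gpia and -0.475 for pkma. What muscle adds to the skin levels was not tested.

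**Figure D1:**
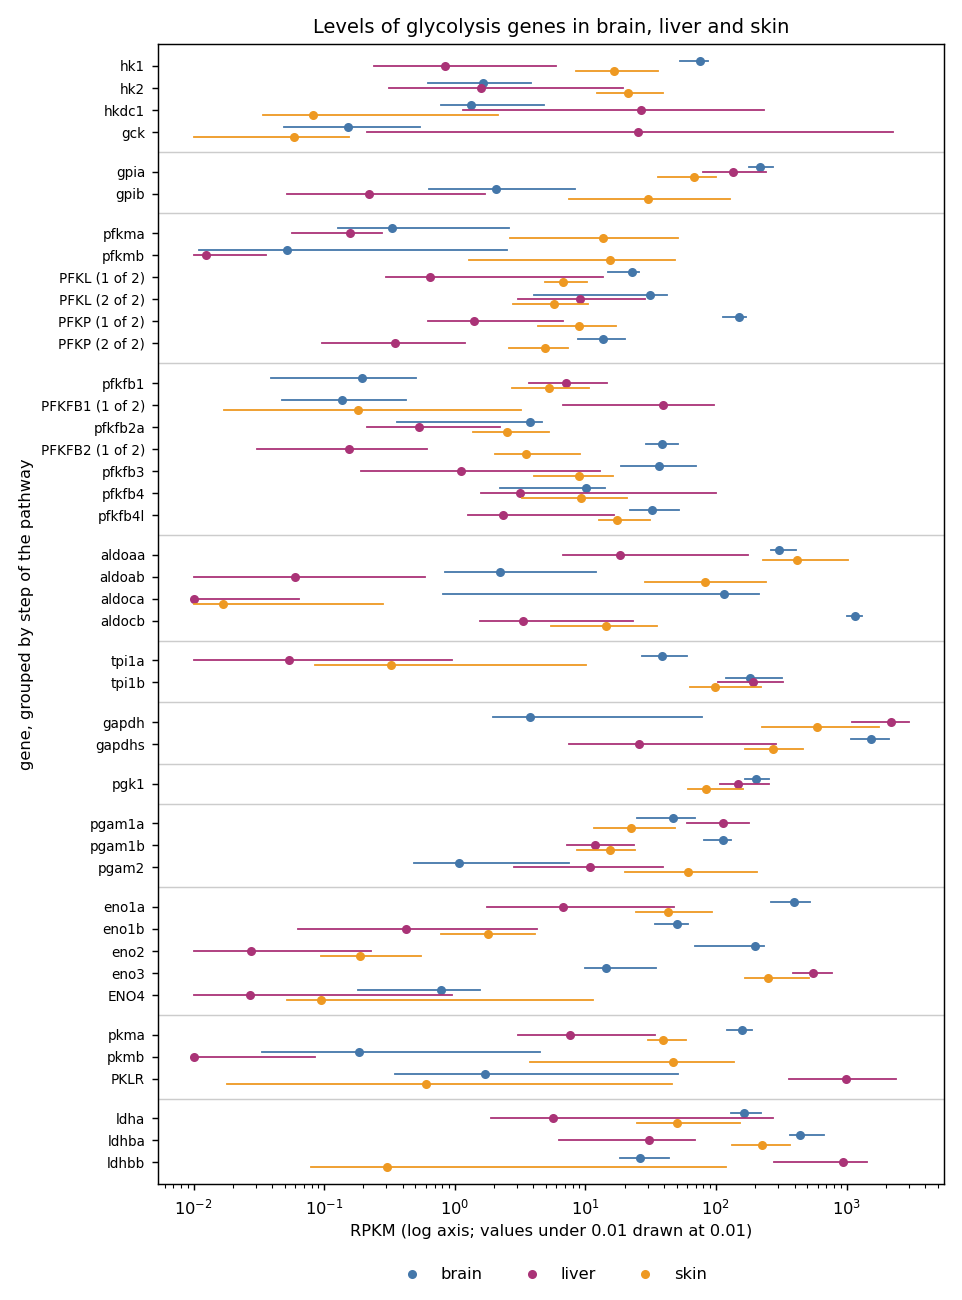
Levels of pathway enzymes and PFKFB regulators in brain, liver and skin, in RPKM on a log axis. Points are medians and lines span the lowest to the highest library (24 brains, 20 livers, 24 skins). The leading copy of most steps changes with the tissue, as with pgam1b in brain, pgam1a in liver and pgam2 in skin.

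The tissues were compared with edgeR's quasi-likelihood test in 1 fit of all 68 libraries. Between brain and liver 27 members were higher and 18 lower in brain of 47 tested, where 82.3% of all genes were called, 43.2% higher and 39% lower. Against skin, 29 members were higher and 13 lower in brain (83% of all genes called, 39.5% higher and 43.5% lower), and 18 were higher and 27 lower in liver (75.1% of all genes called, 31.6% higher and 43.5% lower). Most genes of the genome thus differed between these tissues. The sizes were wide: the log2 fold change of PKLR was 10.82 ± 0.69 in liver over skin (SE, adjusted p = 1.12e-20) and that of aldocb 5.92 ± 0.21 in brain over skin (adjusted p = 1.76e-32). The genes not called between brain and liver were pfkma and PFKL (2 of 2). Between liver and skin they were aldoca and pkmyt1, and between brain and skin pfkfb2a, pgam5, PKLR, pfkfb4 and ENO4.

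The share of each step held by its leading copy was compared between rotenone and control fish by an exact two-sided permutation test, in 66 tests over 3 tissues and both times. In 3 tests p was under 0.05, those of PFKP (1 of 2) in brain and of aldoaa and pkmb in skin, all at 8 weeks, and 0 remained after Benjamini-Hochberg adjustment (smallest adjusted p = 0.786). These group sizes allow no p below 0.00952 at 8 weeks in brain and skin and 0.133 at 3 weeks in liver, so that no share standing out alone could have passed an adjustment over 66 tests. pkmb held 47.4 ± 10.5% of the pyruvate kinase step in rotenone skins and 67.7 ± 12.7% in control skins (SD, n = 6 and 4, exact permutation p = 0.0286). In brain at 8 weeks, for example, aldocb held 70.8 ± 4.06% of the aldolase step with rotenone and 74.2 ± 3.68% in controls (SD, n = 6 and 4, exact permutation p = 0.238).

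After 8 weeks of rotenone, the liver held less hexokinase message of the hkdc1 type. hkdc1 had a lowest, median and highest value of 3.83, 10.7 and 24.5 CPM in the 6 rotenone livers, against 150, 110 and 96.9 CPM in the 3 control livers of 36 months. Every rotenone liver was below every control liver. The log2 fold change was -3.22 ± 0.61 (SE, edgeR adjusted p = 0.00699), and hkdc1 was called whichever of the 9 livers was left out (adjusted p from 0.00745 to 0.0155). Of 44 members tested 4 were called, all lower (7.36% of all genes were called and 5.19% were called lower). The median log2 fold change of the members was -0.41 and that of all genes -0.03.

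The other 3 lower calls rested on 1 control liver. ldha ran from 4.08 to 13.9 CPM in rotenone livers, with a median of 7.63, against 5.91, 6.01 and 594 CPM in controls, PFKL (1 of 2) from 2.08 to 4.95 CPM (median 2.8) against 3.27, 2.58 and 95.1 CPM, and the regulator pfkfb4 from 3.36 to 14.9 CPM (median 4.97) against 6.33, 6.73 and 213 CPM. In each gene the high value is that of control replicate 3, the liver with 2.43% of counts on intestine markers and 6.53% on hepatocyte markers (15.5% or more in every other liver), and the other control values lie within the rotenone range. Their log2 fold changes were -4.04 ± 0.86 for ldha (adjusted p = 0.0116), -2.87 ± 0.63 for PFKL (1 of 2) (adjusted p = 0.0137) and -2.88 ± 0.70 for pfkfb4 (adjusted p = 0.0212). Without that library they were 0.34 (adjusted p = 0.683), -0.01 (adjusted p = 0.99) and -0.02 (adjusted p = 0.99), hkdc1 was at -3.52 ± 0.64 (adjusted p = 0.00745), and the median of the 43 members then tested was -0.12.

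Glucokinase was also low in rotenone livers at 8 weeks but did not pass the test. It ran from 0.419 to 12.5 CPM with a median of 4.62 CPM in the 6 rotenone livers, against 93.4, 49.8 and 0.754 CPM in the control livers. The lowest control value is again that of replicate 3, so the groups overlap through that library. The log2 fold change was -3.20 ± 1.25 (adjusted p = 0.134) with it and -3.79 ± 1.17 (adjusted p = 0.0778) without it. Across the 20 livers gck ran from 0.419 to 4480 CPM, and the highest value, in a 36-month control at 3 weeks, came with the highest hkdc1 value (770 CPM). The other 3-week control liver had 26.6 CPM of gck and 91.1 CPM of hkdc1.

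The abundant liver enzymes gapdh and PKLR did not change beyond the spread between fish. gapdh ran from 2979 to 5790 CPM (median 4066) in rotenone livers, against 5453, 5906 and 3533 CPM in controls, and PKLR from 1272 to 3868 CPM (median 1911) against 2373, 1785 and 628 CPM. In both genes the groups overlapped. gckr, at 0.398 CPM or less in rotenone livers and 0.299, 0.374 and 9.11 CPM in controls, had a log2 fold change of -3.30 ± 0.996 (adjusted p = 0.0538) that also rests on control replicate 3.

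**Figure D2:**
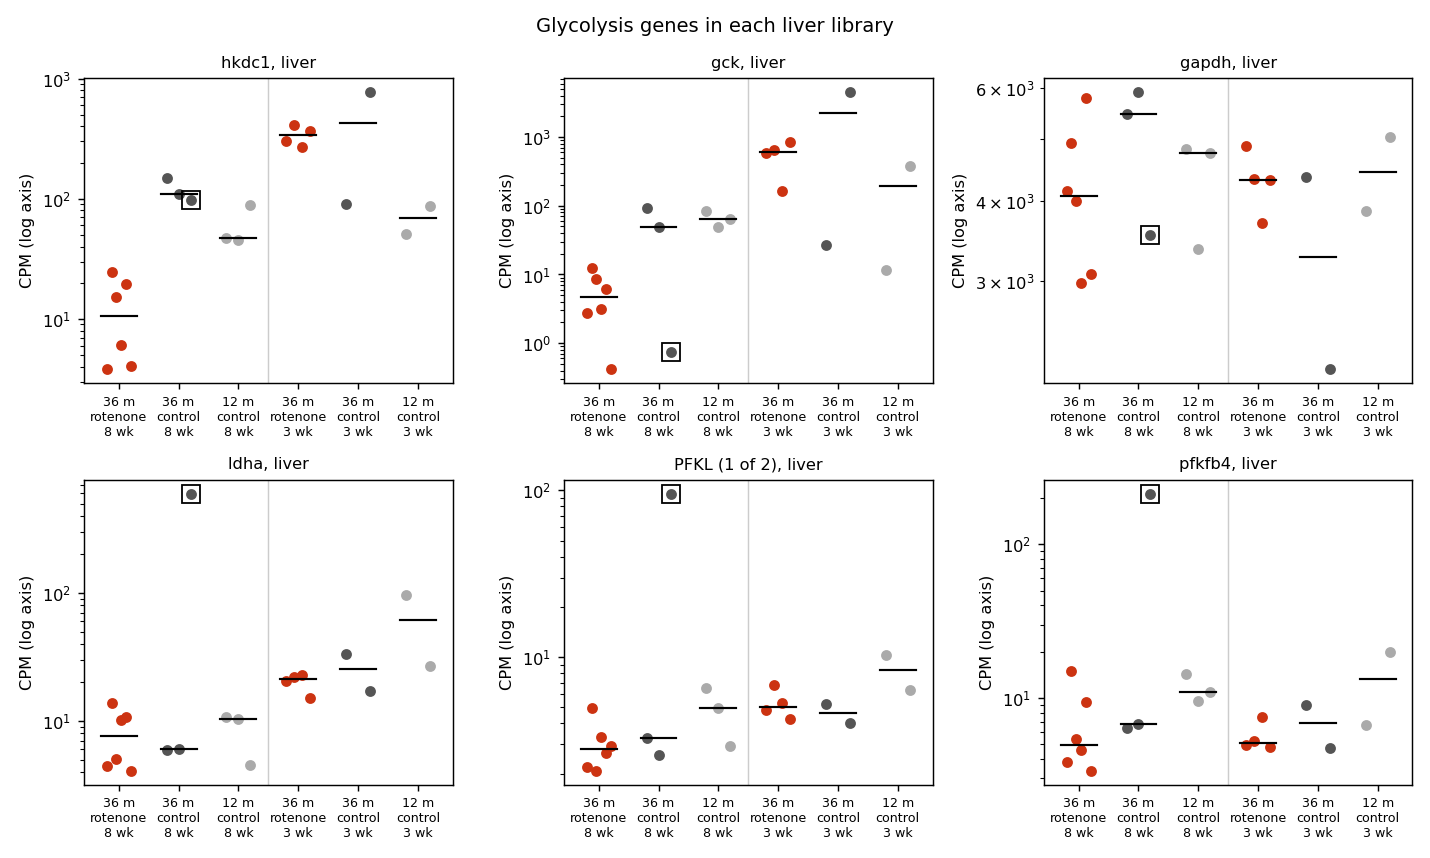
CPM of hkdc1, gck, gapdh, ldha, PFKL (1 of 2) and pfkfb4 in each liver library, on log axes. Points are fish, bars are group medians, and the square marks control replicate 3 of 36 months at 8 weeks. All 6 rotenone livers at 8 weeks lie below the 3 controls for hkdc1, while the boxed library alone lies high for ldha, PFKL (1 of 2) and pfkfb4.

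Genes that feed or drain the pathway were read from 7 lists of neighbouring pathways. In the liver at 8 weeks of rotenone, calls among the genes tested numbered 1 of 11 in gluconeogenesis, 0 of 11 in glucose transport, 2 of 12 in lactate and pyruvate transport, 3 of 9 in the pentose phosphate pathway, 2 of 20 in glycogen metabolism, 0 of 13 in the pyruvate dehydrogenase group and 3 of 26 in hypoxia signalling. Together these are 11 of 102 genes (10.8%), where 7.36% of all genes were called. pgls, the lactonase of the pentose phosphate pathway, ran from 1.17 to 2.19 CPM (median 2.02) in rotenone livers, against 9.25, 7.3 and 3.87 CPM in controls. The groups do not overlap, and the log2 fold change was -1.76 ± 0.41 (adjusted p = 0.017). taldo1, transaldolase of the non-oxidative branch, was the 1 gene of the lists that was higher, at 1.09 ± 0.31 (adjusted p = 0.0431), with 177 to 423 CPM (median 303) in rotenone livers, against 185.5, 161.4 and 122 CPM. The groups overlap by 1 fish.

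pck1, which commits carbon to gluconeogenesis, ran from 40.5 to 407 CPM with a median of 63.9 CPM in rotenone livers, against 881, 789 and 2172 CPM in controls (log2 fold change -2.91 ± 0.63, adjusted p = 0.0128). The monocarboxylate transporter slc16a7 ran from 7.4 to 25.9 CPM (median 14.1) against 101, 54.3 and 54.4 CPM (-2.11 ± 0.41, adjusted p = 0.00768). No rotenone liver reached a control liver in either gene. Without control replicate 3, pgls, pck1 and slc16a7 stayed called (adjusted p = 0.00511, 0.0392 and 0.00505). The other 7 calls named here were lost without it, but not alike. ddit4, an inhibitor of mTORC1 signalling, and hif1al of the hypoxia list were at -3.41 (adjusted p = 0.0532) and -1.29 (adjusted p = 0.0813) without that library and at -3.40 and -1.22 with it. ddit4 ran from 1.01 to 31.5 CPM in rotenone livers, against 107 to 189.7 CPM in controls, and hif1al from 47.3 to 109.7 CPM against 152 to 262 CPM, without overlap in either. taldo1 went to 0.78 (adjusted p = 0.149), ugp2b to -0.53 (0.274), pgm2l1 to -0.27 (0.573) and SLC16A3 (2 of 2) to -0.35 (0.805), while ca9 turned from -3.62 with that library to 0.85 without it (adjusted p = 0.542).

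In skin, most glycolysis genes stood lower after 8 weeks of rotenone. Of 45 members tested, 34 had a log2 fold change below 0 and 11 above, with a median of -0.56 (median of all genes -0.01). Calls numbered 8 lower and 1 higher, against 5.29% of all genes (2.33% lower and 2.96% higher). Called members were found at the aldolase, triosephosphate isomerase, glyceraldehyde-3-phosphate dehydrogenase and enolase steps and among the regulators. No member was called at the other steps, among them the hexokinases (3 tested), phosphofructokinases (6), pyruvate kinases (3) and lactate dehydrogenases (3). Skin is a mixed sample, in which fewer cells of a type and less RNA per cell cannot be told apart. The slope of counts over transcript length ran from -0.0384 to 0.0814 in these rotenone skins and from -0.0613 to 0.0154 in their controls. Its part in the calls was not tested.

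At the upper steps, aldoab had a lowest, median and highest value of 45.5, 76.8 and 142 CPM in the 6 rotenone skins, against 138, 383, 221 and 212 CPM in the 4 control skins. Only the highest rotenone skin reached the lowest control, and the log2 fold change was -1.60 ± 0.42 (adjusted p = 0.0324). tpi1b ran from 138 to 202 CPM (median 151) with rotenone, against 226, 437, 256 and 231 CPM in controls, without overlap (-0.92 ± 0.27, adjusted p = 0.0474). gapdh ran from 442 to 1390 CPM (median 733), against 1168, 3467, 1684 and 3032 CPM, with 1 rotenone skin above the lowest control (-1.68 ± 0.45, adjusted p = 0.0358). gapdhs ran from 242 to 312 CPM (median 279), against 553, 489, 323 and 256 CPM (-0.62 ± 0.17, adjusted p = 0.0396). One control, replicate 4, lay within its rotenone range.

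At the enolase step both eno1 copies fell without overlap. eno1a ran from 69.8 to 97.8 CPM (median 75.5) with rotenone, against 122, 164, 126 and 126 CPM in controls (-0.86 ± 0.21, adjusted p = 0.0209). eno1b ran from 1.44 to 2.76 CPM (median 2.17), against 4.11, 2.94, 3.39 and 4.38 CPM (-0.94 ± 0.24, adjusted p = 0.0272). Some members had larger differences than the eno1 copies, with wider errors, and were not called. Among them were pgam2 at -1.27 ± 0.54, pkmb at -1.40 ± 0.60, pfkma at -1.33 ± 0.61 and gpib at -1.36 ± 0.63 (adjusted p from 0.161 to 0.204). ldha (-1.17 ± 0.37, adjusted p = 0.0649) and pgk1 (-0.61 ± 0.19, adjusted p = 0.0653) missed the threshold of 0.05, and both passed it when the skins that stand apart, which are 3-week controls, were left out (0.0458 and 0.0472).

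The regulators moved in both directions. pfkfb2a, a bifunctional enzyme of the type whose mammalian heart form makes fructose 2,6-bisphosphate, was higher: 8.87 to 13.3 CPM (median 10.5) with rotenone, against 5.71, 4.89, 7.7 and 5.36 CPM in controls, without overlap (0.76 ± 0.18, adjusted p = 0.0195). pfkfb3, the form with the highest kinase activity in mammals, ran from 21.8 to 32.8 CPM (median 25.5), against 30.4, 55, 45.1 and 47.7 CPM (-0.86 ± 0.23, adjusted p = 0.0371). pfkfb4l ran from 37.8 to 64.1 CPM (median 47.7), against 60.7, 69.9, 69.1 and 69.3 CPM (-0.56 ± 0.16, adjusted p = 0.0487). In pfkfb3 and pfkfb4l the groups touch at 1 control, replicate 1.

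No skin call was independent of single fish. Leaving out control replicate 2, the skin with the highest values of aldoab, gapdh, eno1a and tpi1b, ended 8 of the 9 calls. Each of the other 9 skins ended between 2 and 7 calls: 2 for rotenone replicate 4, 3 for control replicate 3 and rotenone replicate 6, 5 for control replicate 1 and rotenone replicates 1 and 5, 6 for control replicate 4, and 7 for rotenone replicates 2 and 3. eno1a held in 9 of the 10 fits (highest adjusted p = 0.0896), pfkfb2a in 8 (0.0856) and tpi1b in 1 (0.212). No direction changed. The log2 fold changes over these fits ran from -0.94 to -0.76 for eno1a, from 0.67 to 0.94 for pfkfb2a and from -1.92 to -1.45 for gapdh.

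**Figure D3:**
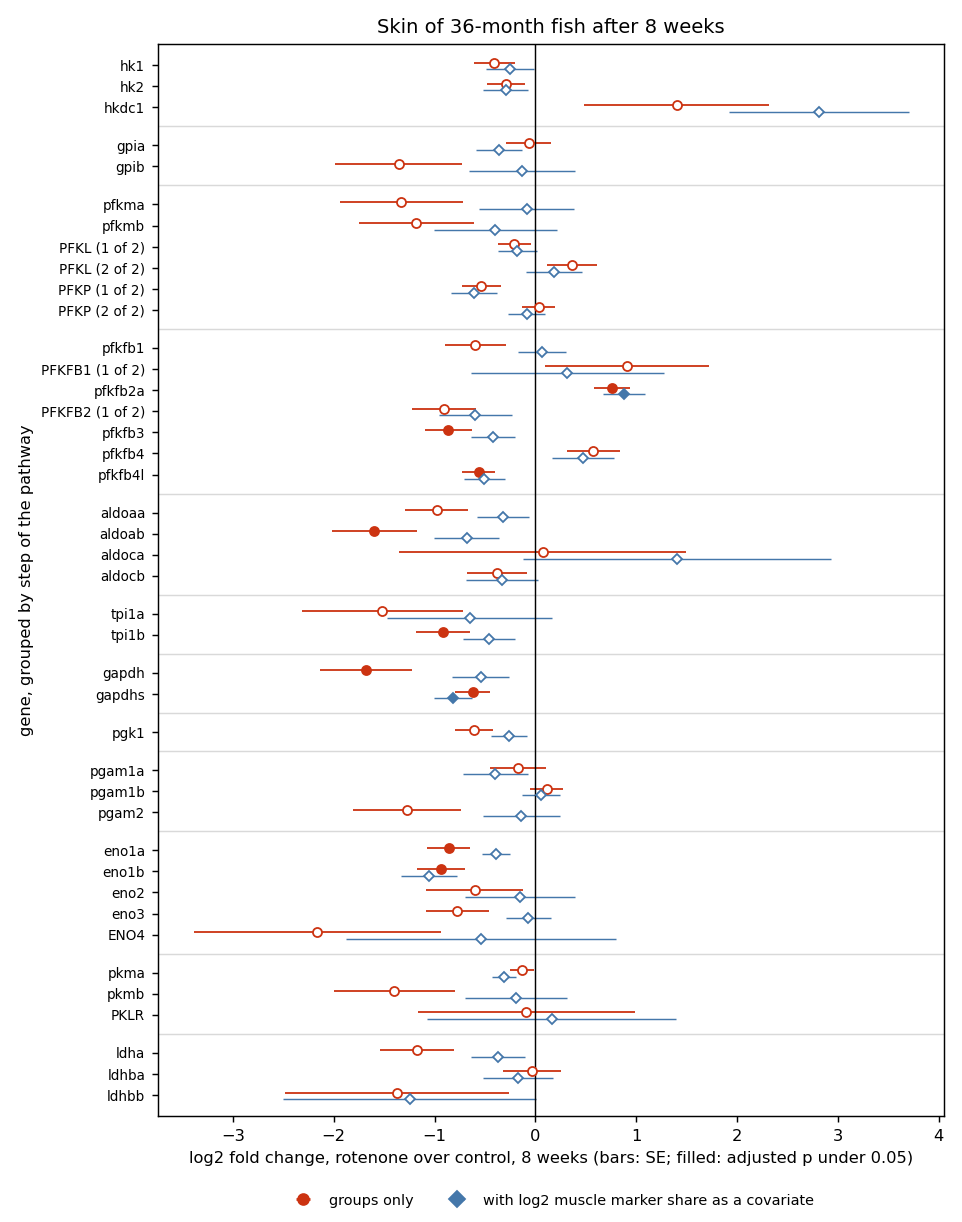
Log2 fold change, rotenone over control, of pathway enzymes and regulators tested in skin at 8 weeks, with the SE. Circles are the fit on the groups only and diamonds the fit with the log2 muscle marker share as a covariate, both filled where the adjusted p is under 0.05. The circles are filled at 9 genes and the diamonds at pfkfb2a and gapdhs.

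Muscle content moved with this comparison. The 49 skeletal muscle markers, none of which is a glycolysis gene, took 0.741% to 2.51% of counts in rotenone skins (median 1.24%), against 1.8% to 4.85% (median 4.02%) in control skins of 36 months at 8 weeks, and each of these markers was detected in skin. With the log2 muscle share as a covariate, the members' median was -0.25 and 2 members were called: pfkfb2a at 0.88 (adjusted p = 0.0357) and gapdhs at -0.82 (adjusted p = 0.0318). The share of all genes called in this fit and their median are not given here. Whether the loss of calls is particular to these genes was not tested. gapdh went to -0.54 (adjusted p = 0.363), aldoab to -0.68 (0.305), eno1a to -0.39 (0.162) and pgam2 to -0.14 (0.904). eno1b kept its size at -1.06 (adjusted p = 0.0601). The groups differ in muscle share, so that its part and that of rotenone cannot be told apart in full by this fit.

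Across all 24 skins, with group means removed, the log2 level of 17 of 45 members rose with the log2 muscle share and that of 2 fell (Pearson's r, 100000 permutations, adjusted p under 0.05 over 45 members). Among the 17 is aldoca, at 0.616 CPM or less in every skin, with a Spearman's rho of 0.444 (adjusted permutation p = 0.0737). Without the libraries that stand apart 15 rose, and pkma and pgam5 fell. The correlation was not run over all genes, so these counts cannot be set against a share of all genes. Values below are those of all 24 skins. For gapdh r was 0.88 and rho 0.892 (adjusted permutation p = 9e-05 for both, and the unadjusted p of 1e-05 is the smallest the permutations can give). Without the 2 skins farthest from the median muscle share its r was 0.889. For pkma r was -0.656 and rho -0.617 (adjusted permutation p = 0.0018 and 0.00376), with r = -0.475 without the 2 farthest skins. r was 0.161 for pfkfb2a (adjusted permutation p = 0.547) and -0.452 for gapdhs (adjusted permutation p = 0.0595).

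**Figure D4:**
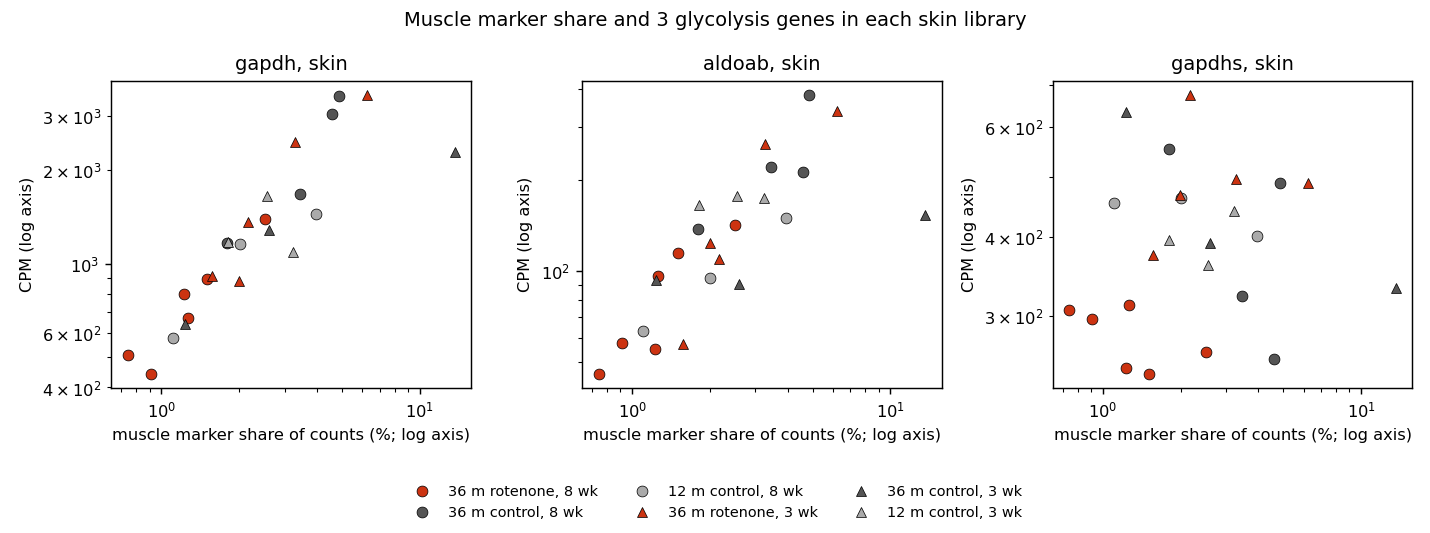
CPM of gapdh, aldoab and gapdhs in each skin library against the percent of its counts on 49 skeletal muscle markers, both on log axes. Colours give treatment and age, circles 8 weeks and triangles 3 weeks. gapdh and aldoab climb with the muscle share, and the 6 rotenone skins at 8 weeks have shares of 0.741% to 2.51%, against 1.8% to 4.85% in their controls; gapdhs does not climb.

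In brain, no member passed the test after 8 weeks of rotenone, where 0.0304% of all genes did (7 of 23032). At an unadjusted p under 0.05 there were 2 members higher and 4 lower (7.39% of all genes), and the members' median log2 fold change was -0.02. The smallest p was that of pfkfb4l, at 64.6 to 98.6 CPM (median 78.1) in rotenone brains, against 96, 96.5, 115 and 118 CPM in controls (-0.48 ± 0.14, adjusted p = 0.338). PFKL (1 of 2) was at 127 to 158.7 CPM (median 141), against 153, 159.5, 166 and 154 CPM (-0.21 ± 0.06, adjusted p = 0.357). In both genes 1 rotenone brain or more overlapped the controls.

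After 3 weeks of rotenone no member was called in any tissue, and neither was any other gene (0% in brain, liver and skin). In brain 12 of 47 members had an unadjusted p under 0.05, 10 higher and 2 lower (12.8% of all genes), with a median log2 fold change of 0.21 that was 0.04 without rotenone replicates 3 and 4. hk2 had the smallest p, at 12, 13.3, 8.43, 6.4 and 9.53 CPM in the rotenone brains, against 4.27, 5.61 and 7.13 CPM in controls (0.89 ± 0.26, adjusted p = 0.359). One rotenone brain fell within the control range. PFKFB1 (1 of 2), under 1 CPM in every brain, was at 1.72 ± 0.65, and pfkfb4l at -0.40 ± 0.15 (adjusted p = 0.359 for both).

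In liver at 3 weeks 2 of 44 members had an unadjusted p under 0.05, both higher (4.8% of all genes), and in skin 5 of 45, 4 higher and 1 lower (10.1% of all genes). Both counts are near the share of all genes. In liver pfkfb4l had 7.32, 4.87, 18.9 and 48.9 CPM with rotenone, against 4.06 and 3.74 CPM in controls (2.30 ± 0.76, adjusted p = 0.934), followed by pfkma (1.26 ± 0.56) and tpi1b (0.64 ± 0.40, adjusted p = 1 for both). In skin pfkfb2a had 9.41, 9.8, 12.6, 7.71 and 10.5 CPM with rotenone, against 5.92, 6.7 and 6.53 CPM in controls, without overlap (0.66 ± 0.20, adjusted p = 0.317), and hkdc1 and PFKL (2 of 2) stood at -2.93 ± 0.95 (adjusted p = 0.349) and 0.83 ± 0.29 (adjusted p = 0.371). The difference between the rotenone effects at 8 and 3 weeks passed the test for no member in any tissue (0% of all genes in brain and skin, 0.0693% in liver), with 5 of 47 members at an unadjusted p under 0.05 in brain (7.73% of all genes), 5 of 44 in liver (11.9%) and 18 of 45 in skin (10.6%). The nearest in skin was pgk1 (-1.14 ± 0.29, adjusted p = 0.198), followed by tpi1b (-1.53 ± 0.41, 0.201) and aldoab (-2.29 ± 0.66, 0.22). In liver they were pfkfb4l (-3.02 ± 0.92, adjusted p = 0.219), PFKL (1 of 2) (-2.97 ± 1.09, 0.294) and hkdc1 (-2.72 ± 1.03, 0.305). In brain they were pfkfb3 (-0.74 ± 0.30) and hk2 (-0.73 ± 0.34), each with an adjusted p of 0.62. The muscle marker share of skin had medians of 1.24% with rotenone and 4.02% in controls at 8 weeks. At 3 weeks they were 2.17% and 2.6%, so that its part in the skin difference and that of rotenone cannot be told apart.

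With age, hk2 was the enzyme that stood higher in brain and in skin. These comparisons use the same 36-month controls as the rotenone comparisons, and each age has controls of both times. In brain hk2 was at 8.84, 5.15, 5.25 and 4.54 CPM in 36-month controls at 8 weeks, against 3.55, 3.54 and 3.39 CPM in 12-month controls. At 3 weeks it was at 4.27, 5.61 and 7.13 CPM in 36-month controls, against 2.14, 3.08 and 3.31 CPM in 12-month controls. Every 36-month brain was above every 12-month brain at the same time and at the other. The log2 fold change was 0.88 ± 0.20 (adjusted p = 0.0235), the only call among 47 members (1.98% of all genes were called). Within 8 weeks it was 0.76 (adjusted p = 0.314) and within 3 weeks 1.002 (adjusted p = 0.248). Leaving out any of 6 brains ended the call (12-month controls replicates 1 and 2 at 3 weeks and 1, 2 and 3 at 8 weeks, and 36-month control replicate 3 at 3 weeks; adjusted p from 0.0505 to 0.0873).

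In skin hk2 was at 79.6, 73.3, 58.7 and 114 CPM in 36-month controls at 8 weeks, against 67.4, 67 and 55.5 CPM in 12-month controls, and the groups overlap. At 3 weeks it was at 75.2, 135 and 116 CPM in 36-month controls, against 43.4, 55.1 and 42.4 CPM in 12-month controls, without overlap. The log2 fold change was 0.96 ± 0.17 (adjusted p = 0.00934), and the call held whichever of the 13 skins was left out (highest adjusted p = 0.0318). Within 3 weeks it was 1.42 (adjusted p = 0.0268) and within 8 weeks 0.50 (adjusted p = 0.438). With the muscle share as a covariate it was 0.96 (adjusted p = 0.0172). Of 45 members 2 were called in skin (2.41% of all genes were called).

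**Figure D5:**
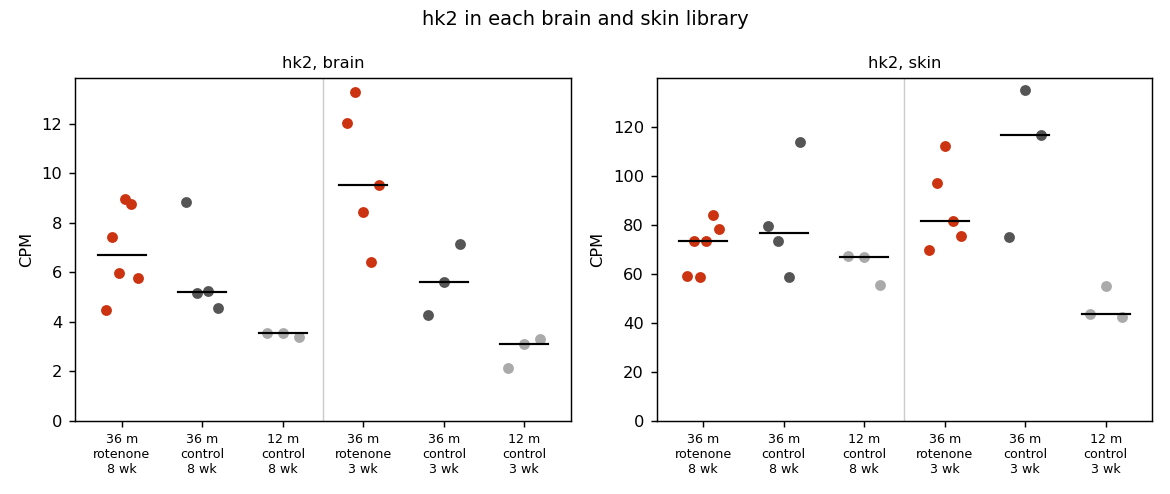
CPM of hk2 in each brain (left) and skin (right) library, on linear axes from 0. Points are fish and bars are group medians. All 7 control brains of 36 months lie above all 6 of 12 months, and in skin the ages are apart at 3 weeks and overlap at 8 weeks.

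The other skin call was PFKFB1 (1 of 2), the copy that leads in liver, which was lower at 36 months. It was at 1.17, 0.628, 0.23 and 0.182 CPM in 36-month controls at 8 weeks, against 2.33, 2.74 and 1.55 CPM in 12-month controls, and at 0.0727, 0.243 and 0.123 CPM against 6.9, 0.218 and 1.53 CPM at 3 weeks. The groups overlap at 3 weeks through 1 skin of 12 months. The skin with 6.9 CPM, 12-month control replicate 1, had 1.87% of counts on hepatocyte markers, against 0.278% or less in the other skins. What liver RNA adds to this difference was not tested. The log2 fold change was -3.04 ± 0.73 (adjusted p = 0.0353), and leaving out any of 8 skins ended the call. Those were 36-month replicates 2 and 4 at 8 weeks and 2 and 3 at 3 weeks, and 12-month replicates 1, 2 and 3 at 8 weeks and 1 at 3 weeks, without the last of which it was -2.14 (adjusted p = 0.126). eno1b followed at 0.71 ± 0.21 (adjusted p = 0.0701).

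In liver no member passed the age test, where 0.926% of all genes did. At an unadjusted p under 0.05 there were 2 higher and 1 lower, and DESeq2 called 2 members. Both counts are given without the share of all genes at that p or in the DESeq2 fit, so they cannot be set against it. hkdc1 was at 150, 110 and 96.9 CPM in 36-month livers at 8 weeks, against 46.9, 45.7 and 88.1 CPM in 12-month livers, and at 91.1 and 770 CPM against 50.7 and 87.7 CPM at 3 weeks. The ages do not overlap at either time (1.89 ± 0.59, adjusted p = 0.123). pfkfb4l was at 7.48, 5.67 and 20.8 CPM, against 10.7, 25.3 and 9.3 CPM, at 8 weeks and at 4.06 and 3.74 CPM, against 21 and 32.1 CPM, at 3 weeks (-1.64 ± 0.52, adjusted p = 0.125). ENO4, at 1.96 CPM or less in every liver, was at 3.08 ± 1.304 (adjusted p = 0.229). The median of all genes was itself at 0.13 in this comparison. Pancreas markers took 1.77% and 2.18% of counts in the 36-month control livers at 3 weeks, against 0.0165% and 0.114% at 12 months. At 8 weeks they took 0.192% to 1.13%, against 0.0121% to 0.206%. Their part in the age and sampling-time differences of liver was not tested. In brain pfkfb3 followed hk2, at 122, 125, 149 and 142 CPM in 36-month controls, against 83.4, 63 and 80.6 CPM, at 8 weeks, without overlap. At 3 weeks pfkfb3 was at 123, 114 and 167 CPM, against 84.2, 128 and 93.6 CPM, and the ages overlap. Its log2 fold change over both times was 0.62 ± 0.17 (adjusted p = 0.0702), and DESeq2 called it (adjusted p = 0.0213). tpi1a was next, at -0.45 ± 0.16 (adjusted p = 0.164).

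With all libraries in the fit, few of these genes were called between control fish sampled at 8 and at 3 weeks. In liver the number of calls ran from 0 to 9 when single control livers were left out, and 6 of the 10 omissions moved it. In brain 0 of 47 members were called, with 0.122% of all genes, and 0 had an unadjusted p under 0.05 (4.58% of all genes). The smallest p were those of hk1 (0.19 ± 0.09), aldoab (0.96 ± 0.51) and gckr (0.78 ± 0.42), each with an adjusted p of 1. In liver hk1 was the single call of 44 members (7.35% of all genes were called): it was at 2.53, 1.19 and 8.13 CPM in 36-month controls at 8 weeks, against 7.44 and 5.84 CPM at 3 weeks, and at 2.71, 2.5 and 1.6 CPM, against 24.1 and 7.87 CPM, in 12-month controls. The 8-week value above the others, 8.13 CPM, is that of replicate 3. The log2 fold change was -1.62 ± 0.39 (adjusted p = 0.0212). It was not called without 12-month control replicate 1 at 3 weeks (-1.21, adjusted p = 0.155), 12-month control replicate 3 at 8 weeks (0.0516) or 36-month control replicate 2 at 3 weeks (0.096). pgam2 (1.43 ± 0.43, adjusted p = 0.0522) and gapdhs (-1.64 ± 0.50, adjusted p = 0.055) missed the threshold. Without 36-month control replicate 3 at 8 weeks 9 members were called, a count given without the share of all genes called in that fit. Those lower at 8 weeks were ldha (-2.07 ± 0.35, adjusted p = 0.00323), hk1, pkma, aldoaa, gapdhs, aldocb, eno1a and the non-glycolytic pgam5, and the one higher was PKLR (1.65 ± 0.41, adjusted p = 0.0174). hk1, pkma, gapdhs, aldocb and eno1a are copies that lead their step in brain and aldoaa the one that leads in skin, while PKLR leads in liver. Of the 3-week control livers, 12-month replicate 1 was highest in gapdhs (420 CPM, against 49.2, 85.2 and 28.5 CPM) and eno1a (136 CPM, against 20.3, 57.9 and 13.8 CPM). It was also highest in aldocb (50.8 CPM, against 7.84, 17 and 6.6 CPM) and aldoaa (126 CPM, against 48.1, 105 and 29.2 CPM). What that library adds to the 9 calls was not tested.

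In skin 3 members were called between the times (3.26% of all genes were called). pfkfb4l was higher at 8 weeks, at 60.7, 69.9, 69.1 and 69.3 CPM, against 59.9, 42.2 and 50.2 CPM at 3 weeks, in 36-month controls, and at 74.8, 61.6 and 92 CPM, against 37.2, 52.9 and 48 CPM, in 12-month controls, with no overlap at either age (0.63 ± 0.14, adjusted p = 0.0233). Without 12-month control replicate 1 at 3 weeks, or 1 or 3 at 8 weeks, its adjusted p was 0.0524, 0.0528 and 0.0754. ldhbb, the liver lactate dehydrogenase, was lower, with 225 CPM in 12-month control replicate 1 at 3 weeks and between 0.218 and 6.47 CPM in every other control skin (-3.74 ± 0.97, adjusted p = 0.0381, and -1.35 with adjusted p = 0.316 without that library). Hepatocyte markers took 1.87% of that library, against 0.278% or less in the other skins. hkdc1 was at -2.89 ± 0.78 (adjusted p = 0.0464), at 0.395 CPM or less in every 8-week control and up to 6.99 CPM at 3 weeks. Leaving out any 1 of 11 of the 13 control skins ended that call, the exceptions being 36-month replicate 2 and 12-month replicate 3 at 3 weeks. Without the skins that stand apart 0 of 45 members were called between the times, with adjusted p = 0.0735 for pfkfb4l.

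Whether tissues differed in response was tested directly in the fit of all libraries, which took them as independent. With fish number as a block, fewer members differed for rotenone between liver and brain and between liver and skin. For rotenone at 8 weeks, 4 of 47 members differed between liver and brain (5.54% of all genes were called): hkdc1 (-3.73 ± 0.92, adjusted p = 0.00758), and ldha, pfkfb4 and PFKL (1 of 2), which rest on control liver replicate 3. Between liver and skin 5 differed (5.41% of all genes), the same 4 and pfkfb2a (-1.40 ± 0.44, adjusted p = 0.0489). Between skin and brain 0 did (0.0702% of all genes). Without the libraries that stand apart hkdc1 was at -4.00 in liver minus brain and -4.83 in liver minus skin (adjusted p = 0.00564 and 0.0038). With age, pfkfb4l differed between liver and brain (-1.70 ± 0.41, adjusted p = 0.0196, with 1.67% of all genes called) and between liver and skin (-1.90 ± 0.41, adjusted p = 0.00736), where PFKFB1 (1 of 2) did too (2.96 ± 0.80, adjusted p = 0.0397, with 1.77% of all genes called). Between skin and brain 0 members differed with age (0.226% of all genes). The age effect on hk2 was not shown to differ between tissues: liver minus brain was -1.18 ± 0.55 (adjusted p = 0.283) and liver minus skin -1.28 ± 0.54 (adjusted p = 0.24).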

How the data were processed

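RNA of 68 brain, liver and skin samples was made into libraries with Illumina's TruSeq RNA kit, per the labels' protocols, a kit that does not mark strand, so reads of overlapping genes on opposite strands cannot be told apart. The submitters' processing notes list CASAVA 1.8.2. Which aligner, read counter and build were used is not given. The authors deposited raw counts per gene and RPKM values for each sample in 1 table. Counts were used for all tests and for CPM, and the authors' RPKM for levels between genes and for shares within a step.

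Per tissue, edgeR 4.0.16 (R 4.3.3) was run with TMM scaling, filterByExpr (minimum count 10, minimum total 15), 1 fit of 6 groups and robust quasi-likelihood F tests, with Benjamini-Hochberg adjustment over all genes tested and a threshold of 0.05. Tissues were compared in 1 fit of all 68 libraries. Age is the mean difference over both times, and sampling time the mean over both ages. Each SE was taken from the log2 fold change and its F statistic. The procedure was tested on simulated counts whose spread between fish was, for abundant genes, set below the common value fitted here. Its power and false calls at the fitted spread were not tested. Exact permutation tests and correlations (offset of 0.5 on CPM, group means removed) used scipy 1.17.1. No library was a copy of another.

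Named are the members called in a rotenone, age or sampling-time comparison (at most 12 with the smallest p), where a comparison called under 3 also its 3 members of smallest p, the leading copy of each step in each tissue, and the called genes of neighbouring lists (at most 3 with the smallest p, with others named after their values were seen). Members and lists were chosen with earlier results of these data known. Alternatives were RLE scaling, no filter, DESeq2 1.42.0, leaving out the 5 libraries that stand apart or each library in turn, blocks on replicate or fish number, the muscle share as a covariate, and each time or age alone. Replicate numbers did not pair the samples. Within tissues the median correlation of same-numbered samples was -0.04, -0.06 and -0.10 in brain, liver and skin. Fish numbers were shared across tissues, which the labels do not explain. Samples with the same fish number had median correlations of 0.173 (brain and liver), 0.271 (brain and skin) and 0.265 (liver and skin). The own number gave the best correlation in 11 of 20, 20 of 24 and 14 of 20 pairs. The main tests between tissues took all libraries as independent. Results on some genes are not reported here. No sequences are shown.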

Additional observations from a re-analysis of the deposited data

Results flagged for a closer look

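In 94 groups of 4 or more fish examined for 1 fish far from the rest, 15 held one. Chance gives about 1 in 20 such groups where groups are independent. These groups share fish, and their genes were named from the same data, so no excess over chance can be read from the count. In brain these were rotenone replicate 6 at 8 weeks for PFKFB1 (1 of 2) (0.91 CPM), rotenone replicate 1 for hk1 (289 CPM) and rotenone replicate 3 for aldoab (19.4 CPM) at 8 weeks, and among 36-month controls at 8 weeks replicate 1 for hk2 (8.84 CPM) and replicate 2 for aldoab (18.4 CPM). Some lay near the rest in size: the other rotenone brains at 8 weeks had 308 to 319 CPM of hk1. In liver they were rotenone replicate 1 for ENO4 (1.96 CPM) and rotenone replicate 3 for pfkfb4 (7.5 CPM), both at 3 weeks.

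In skin they were, with rotenone at 8 weeks, replicate 2 for hkdc1 (3.13 CPM) and replicate 6 for ldhbb (1.35 CPM), and with rotenone at 3 weeks replicate 3 for eno1b (7.55 CPM) and PFKFB1 (1 of 2) (0.418 CPM) and replicate 1 for hkdc1 (0.998 CPM). Among 36-month control skins at 8 weeks they were replicate 2 for eno1a (164 CPM) and tpi1b (437 CPM), both called lower with rotenone, and replicate 1 for pfkfb4l (60.7 CPM). The other control skins of that group had 69.1 to 69.9 CPM of pfkfb4l.

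Tissues differed in their response for 12 pairs of gene and comparison, each by an interaction term in edgeR's fit of all libraries. For rotenone at 8 weeks, liver minus brain was -3.73 for hkdc1, -3.95 for ldha, -2.93 for pfkfb4 and -2.61 for PFKL (1 of 2) on the log2 scale. Liver minus skin was -4.57 for hkdc1, -2.79 for ldha, -3.38 for pfkfb4, -2.59 for PFKL (1 of 2) and -1.40 for pfkfb2a. For age, liver minus brain was -1.70 for pfkfb4l, and liver minus skin was -1.90 for pfkfb4l and 2.96 for PFKFB1 (1 of 2).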

How the results depend on the processing

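Numbers here are counts of members called, given without the share of all genes called in the same fit. With the replicate block, calls fell to 0 for rotenone at 8 weeks in liver (hkdc1 at -3.45, adjusted p = 0.0788) and skin, for age in brain and for sampling time in liver and skin, and to 1 for age in skin (hk2). With the fish block, 1 remained for rotenone at 8 weeks in liver minus brain and in liver minus skin, and 1 for age in liver minus skin. Without the libraries that stand apart there was 1 for rotenone at 8 weeks in liver, 2 for age in brain, 9 and 0 for sampling time in liver and skin, 1 and 2 for rotenone at 8 weeks in liver minus brain and liver minus skin, and 2 for age in liver minus brain. There ldha in liver reversed to 0.34 (log2). DESeq2 called 2 for age in brain, 2 for age in liver, 6 for sampling time in liver and 6 in skin, 1 and 3 for the rotenone effect at 8 minus 3 weeks in liver and skin, and 1 for rotenone at 8 weeks in skin minus brain. It called 0 for rotenone at 3 weeks in every tissue and at 8 weeks in brain. RLE scaling gave 2 for sampling time in liver, and no filter 1 for that in skin. The muscle covariate left 2 for rotenone at 8 weeks and 1 for age in skin. Age calls were 0 within 3 weeks and 0 within 8 weeks in brain, and 1 within 3 weeks and 0 within 8 weeks in skin. Sampling-time calls were 2 within 12 months and 0 within 36 months in liver, and 0 within 12 and 0 within 36 months in skin. Leaving out each library gave 0 to 1 for age in brain, 1 to 6 for rotenone at 8 weeks in liver, 0 to 9 for sampling time in liver, 1 to 8 for rotenone at 8 weeks in skin, 1 to 4 for age in skin and 0 to 4 for sampling time in skin. ldha in liver then ran from -4.68 to 0.34. The cause was not tested, except that each setting which drops libraries has fewer fish. What depth adds to the limits was not tested.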

Other observations

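In skin 2 of 104 genes of the 7 neighbouring lists were called after 8 weeks of rotenone (1.92%, against 5.29% of all genes). The glucose transporter slc2a11b ran from 11.2 to 32.1 CPM in rotenone skins, against 45.6, 56.8, 31.2 and 30.5 CPM in controls, with 1 rotenone skin inside the control range (log2 fold change -1.14 ± 0.25, edgeR adjusted p = 0.0121). The lactate exporter SLC16A3 (2 of 2) ran from 2.77 to 5.41 CPM, against 1.63, 2.02, 1.78 and 1.64 CPM, without overlap (1.096 ± 0.25, adjusted p = 0.0164). With age 3 of 104 were called in skin (2.88%, against 2.41% of all genes). Among them pdk3b, a kinase that switches off pyruvate dehydrogenase, was lower in skin: at 8 weeks 16.7, 14.5, 11.5 and 17.5 CPM at 36 months, against 24.1, 26.8 and 24.9 CPM at 12 months, and at 3 weeks 14, 7.05 and 4.99 CPM against 21.4, 17.8 and 29.5 CPM (-0.92 ± 0.22, adjusted p = 0.0345). The ages did not overlap.

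pdha1b, a subunit of pyruvate dehydrogenase, was higher in control skins at 8 than at 3 weeks: 2.38, 2.02, 3.95 and 2.77 CPM, against 0.254, 0.243 and 0.216 CPM, at 36 months, and 3.01, 2.67 and 5.04 CPM, against 1.03, 1.02 and 1.25 CPM, at 12 months (2.67 ± 0.33, adjusted p = 0.000817). In liver pck1 was lower at 36 than at 12 months (-3.24 ± 0.66, adjusted p = 0.0348). At 3 weeks it was at 46.1 and 80.4 CPM at 36 months, against 5930 and 3654 CPM at 12 months, and at 8 weeks at 881, 789 and 2172 CPM, against 1933, 824 and 1817 CPM, so that the ages overlap at 8 weeks.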
